A study of Mus musculus with 5 samples.

Results

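The solute carrier families Slc4, Slc8, Slc9, Slc12, Slc24 and Slc26 encode membrane proteins that exchange or co-transport sodium, calcium, protons, potassium, chloride and bicarbonate. Their genes were taken from the table by symbol and protein-coding biotype, which gave 49 of 40624 genes, and 40 of the 49 had enough reads to be tested. RNA came from atria of C57BL/6 mice at postnatal day 1, and all libraries carried SLN-Cre, a Cre recombinase whose activity follows the atrial muscle gene Sln. The 3 control libraries (replicates 2, 4 and 6) were Nkx2-5-flox/+, so they too could lose 1 allele where the Cre acted, and the 2 mutant libraries (replicates 5 and 7) were Nkx2-5-flox/flox. Whole atria also hold cells in which that Cre is not expected to act, and the labels do not say whether each library came from a separate animal. The p-values therefore measure the spread between these libraries, which may be partly technical.

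Carriers of these families set the ion gradients and the pH that heart muscle needs. The sodium-calcium exchanger removes calcium from the myocyte after each beat, sodium-proton exchangers and sodium bicarbonate cotransporters extrude acid, and chloride-bicarbonate exchangers load it. The cation-chloride cotransporters move chloride with potassium or sodium and so set cell volume and cell chloride.

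The libraries held 58.5 to 60.9 M gene counts in controls and 69.6 and 78.8 M in mutants. Nkx2-5, the targeted gene, stood at 76.8, 72.1 and 71.3 CPM (counts scaled to library size) in controls 2, 4 and 6, against 5.79 and 5.21 CPM in mutants 5 and 7, so each library matched its label (log2 fold change -3.74 ± 0.09 SE). Sln itself was at -0.17 ± 0.07 and did not pass (adjusted p = 0.251, edgeR). The atrial myosin light chain gene Myl7 stood at 9949 to 11075 CPM across the 5 libraries, as a marker of the labelled tissue.

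Of the 40 tested carrier genes, 7 fell in mutant atria and none passed as higher. The falls were those of Slc12a8, Slc26a3, Slc4a8, Slc4a4, Slc24a2, Slc26a11 and Slc4a3, and they ran from 5.71-fold for Slc12a8 down to 1.27-fold for Slc4a3. A gene passed at an adjusted p under 0.05, from the quasi-likelihood test of edgeR, with Benjamini-Hochberg adjustment over all 17835 tested genes. By the same rule 6.58% of all tested genes passed, 3.57% as lower and 3.02% as higher, against 17.5% lower among the tested carriers. Of 211 other tested Slc genes, 12 were lower and 14 higher. At an unadjusted p under 0.05 in the edgeR test, 2 carriers were higher and 12 lower. Over all 17835 tested genes, 1880 were higher and 1825 lower by that measure, 20.8% in either direction. DESeq2 called 1 carrier higher and 8 lower, where it called 5.72% of all genes higher and 6.22% lower. Limma-voom called 0 higher and 5 lower, against 2.5% and 3.04% of all genes. The count of 7 dropped when 1 control was left out, to 4 without control 2 or control 6 and to 3 without control 4. Over all tested genes the count of lower genes dropped as well. It went from 636 to 306 without control 2, 419 without control 6 and 331 without control 4. Slc12a8, Slc26a3 and Slc4a4 were called lower in each of these fits.

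Over the tested carriers the median log2 fold change was -0.09, against 0.01 over all tested genes. A negative value was found for 22 of the 40, against 48.7% of all tested genes. Mutant values lay wholly below the control values for 14 carriers and wholly above them for 6, where 19.2% and 18.6% of all tested genes did so. The 33 carriers that did not pass had log2 fold changes from -1.56 to 0.99. The plot of fold changes by family sets the 7 falls among them.

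**Figure D1:**
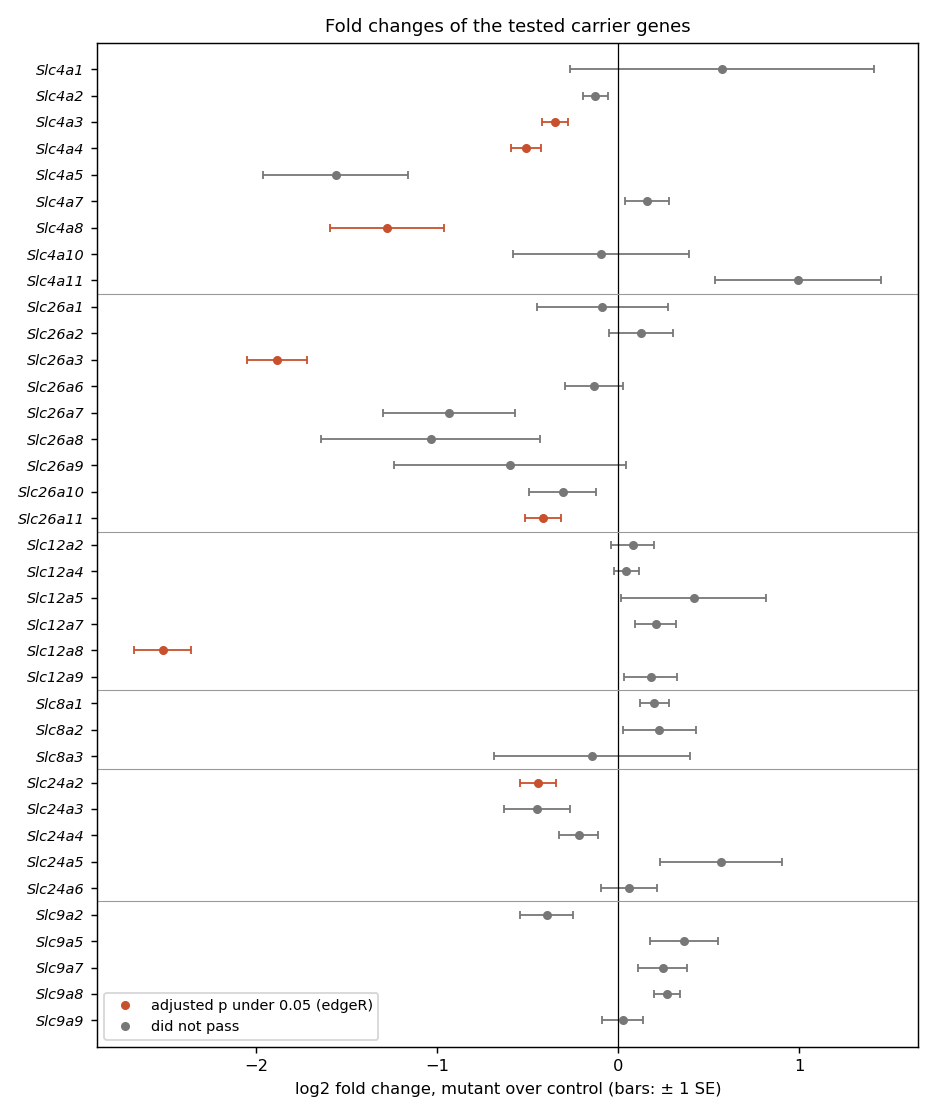
Log2 fold change of mutant over control (x axis) for 37 of the 40 tested carrier genes (y axis), grouped by family, with bars of 1 standard error. The 7 genes with adjusted p under 0.05 lie left of 0, from -2.51 for Slc12a8 to -0.35 for Slc4a3, and no gene passed to the right of 0.

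Levels spanned a wide range. Per length, in the authors' RPKM (reads scaled to gene length and library depth, 1 pooled value per group), 24 of the 49 genes had a mean of the group values of at least 1. Slc8a1 stood first at 47.1 RPKM in controls and 53.0 RPKM in mutants. Slc12a4 followed at 11.1 and 11.3 RPKM, then Slc12a7 at 6.68 and 7.55 RPKM, Slc26a10 at 7.09 and 5.59 RPKM and Slc4a2 at 5.95 and 5.39 RPKM. The genes that fell ranged in controls from 4.28 RPKM for Slc4a3 to 0.0838 RPKM for Slc4a8. When the levels per kilobase were summed over all 49 genes in each library, Slc8a1 made up 37.7%, 37.5% and 39.6% of the sum in controls 2, 4 and 6, against 43.0% and 43.3% in mutants 5 and 7.

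**Figure D2:**
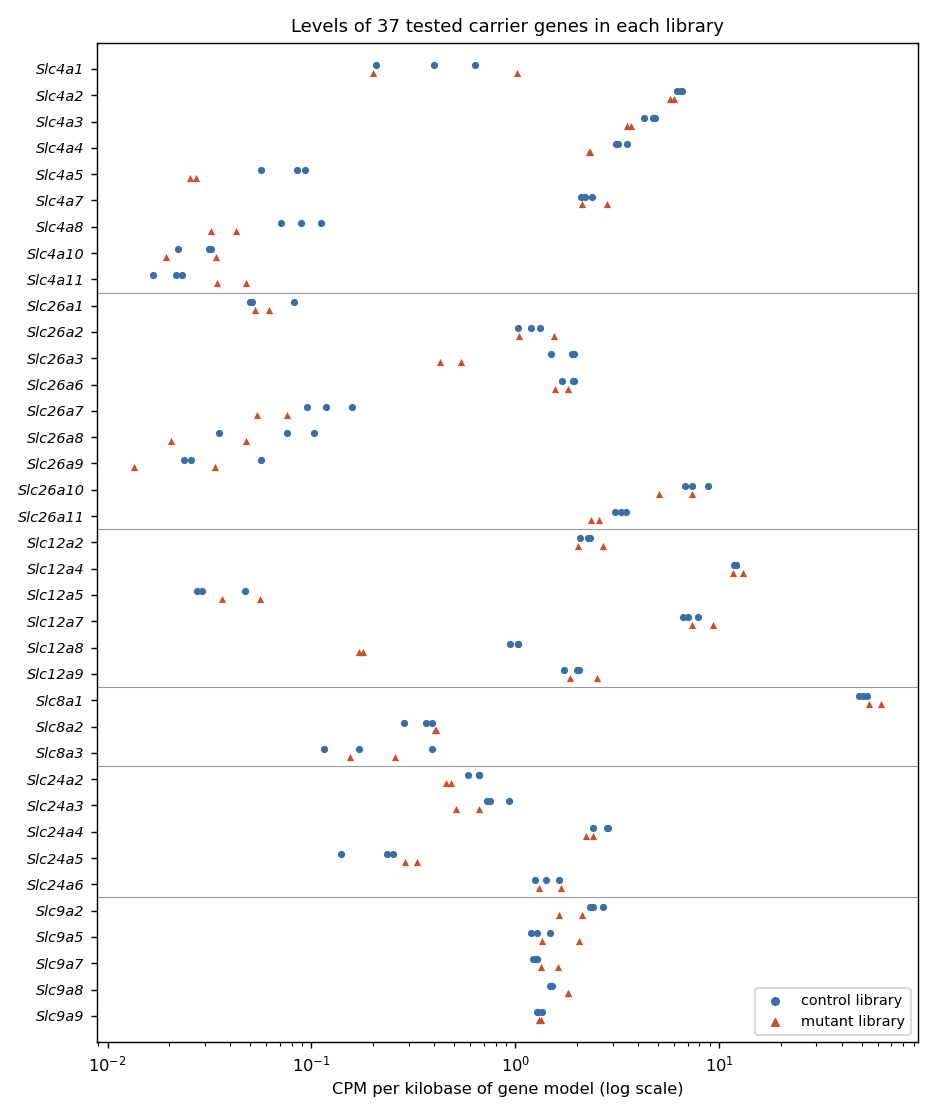
Level of 37 of the 40 tested carrier genes (y axis, by family) in each library, as CPM per kilobase of gene model on a log axis (x axis), with circles for control and triangles for mutant libraries. Slc8a1 stands above all others drawn in the 5 libraries, and the mutant triangles of Slc12a8 and Slc26a3 lie well left of the control circles.

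The remaining 9 genes were too low to test. They were the kidney cotransporter genes Slc12a1 and Slc12a3, and Slc24a1, Slc26a4, Slc26a5, Slc4a9, Slc9a3, Slc9a4 and Slc9a10, with at most 11 counts in any library. Slc9a10 had 0 counts in all 5 libraries, which allows a level of up to 0.0513 CPM in the shallowest and 0.0381 CPM in the deepest library (3 counts per library, for counting error only).

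Slc12a8 had the largest fall of the set. It belongs to the cation-chloride cotransporter family by sequence, but it is a divergent member for which other substrates have been described. It stood at 7.09, 7.09 and 6.43 CPM in controls 2, 4 and 6, against 1.23 and 1.17 CPM in mutants 5 and 7. The groups lay far apart and each was tight. The mean of the controls was 6.87 ± 0.38 CPM (SD, n = 3) and that of the mutants 1.20 ± 0.04 CPM (SD, n = 2), a log2 fold change of -2.51 ± 0.16 (SE) with an adjusted p of 0.000163 in edgeR. With each library left out in turn the fold change stayed between -2.56 and -2.48. The gene (ENSMUSG00000035506) is listed on the plus strand of chromosome 16, from 33518415 to 33663173 in mm9, the build of the table.

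Promoter windows of the 2 largest falls, Slc12a8 and Slc26a3, are shown because NK-2 class homeodomain factors such as Nkx2-5 bind DNA elements with a core of TNAAGTG. The sequences are the 250 bases before a RefSeq transcript start, on GRCm38.p6, a build other than that of the count table, 5′ to 3′ on the gene's strand. Capitals mark a match to TNAAGTG on either strand.
Slc12a8, chr16:33517078-33517327, plus strand: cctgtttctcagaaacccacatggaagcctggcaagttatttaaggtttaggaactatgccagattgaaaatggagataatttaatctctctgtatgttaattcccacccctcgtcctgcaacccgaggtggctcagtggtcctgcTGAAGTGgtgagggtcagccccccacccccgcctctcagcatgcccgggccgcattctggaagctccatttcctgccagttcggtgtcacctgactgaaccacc
Slc26a3, chr12:31437969-31438218, plus strand: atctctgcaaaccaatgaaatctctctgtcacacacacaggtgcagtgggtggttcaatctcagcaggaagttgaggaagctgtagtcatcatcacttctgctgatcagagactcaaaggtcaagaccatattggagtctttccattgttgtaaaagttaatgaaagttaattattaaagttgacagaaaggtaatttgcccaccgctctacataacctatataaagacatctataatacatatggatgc
The match in the Slc12a8 window begins 104 bases before that start, and 2 other starts of the gene had no match in their windows. The Slc26a3 window had none. RefSeq windows were found for 35 of the 49 genes. A match stood in 3 of their 45 windows (6.67%), 1 each of Slc12a8, Slc12a4 and Slc26a6, and in 10.1% of all 32851 windows of this length. For the 6 falling genes with a window, 1 had a match. A match is a run of letters and not a measured binding site.

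The other cation-chloride cotransporter genes did not pass. Slc12a2 encodes the sodium-potassium-chloride cotransporter NKCC1, which brings chloride into the cell, and Slc12a4 and Slc12a7 encode potassium-chloride cotransporters, which take it out. Slc12a4 stood at 59.4, 60.8 and 60.3 CPM in controls 2, 4 and 6, against 58.7 and 65.5 CPM in mutants 5 and 7, overlapping ranges with a log2 fold change of 0.05 ± 0.07 (SE). It shares 361 exonic bases with Gm16156 on the opposite strand, and reads of such pairs cannot be told apart without strand. Slc12a7 stood at 40.4, 47.7 and 42.6 CPM in controls and at 44.4 and 56.2 CPM in mutants (log2 fold change 0.21 ± 0.11). Slc12a2 stood at 21.1, 23.1 and 23.6 CPM in controls and at 20.6 and 27.1 CPM in mutants (0.08 ± 0.12). In all 3, mutant 7 was the highest library and mutant 5 lay within or below the control range. Slc12a9 had a log2 fold change of 0.18 ± 0.15 and the neuronal Slc12a5 one of 0.42 ± 0.40 at a mean of 0.40 CPM in controls.

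Slc26a3 and Slc26a11 fell among the 9 tested Slc26 genes, a family of exchangers and channels for chloride, bicarbonate, sulfate and other anions. Slc26a3 encodes a chloride-bicarbonate exchanger best known from the gut. It stood at 15.6, 15.9 and 12.2 CPM in controls 2, 4 and 6, against 3.49 and 4.44 CPM in mutants 5 and 7. Control 6 was the lowest control and still stood far above both mutants. The mean of 14.6 ± 2.05 CPM (SD, n = 3) fell 3.69-fold to 3.96 ± 0.67 CPM (SD, n = 2) in mutants, with a log2 fold change of -1.88 ± 0.17 (SE) and an adjusted p of 0.000804 in edgeR. Its fold change stayed between -2.07 and -1.72 with each library left out. In mm9 the gene (ENSMUSG00000001225) is listed on the plus strand of chromosome 12, from 32131964 to 32158360.

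Slc26a11, which encodes a sulfate and chloride carrier, stood at 16.5, 15.7 and 14.6 CPM in controls 2, 4 and 6, against 11.2 and 12.2 CPM in mutants 5 and 7. The groups did not overlap. Its log2 fold change was -0.41 ± 0.10 (SE), close to the threshold (adjusted p = 0.0469, edgeR), and the call was lost with any 1 library left out (adjusted p 0.0606 to 0.182). The authors' deposited table gave it an adjusted p of 0.0557. In mm9 it is listed from 119218165 to 119241602 on the plus strand of chromosome 11. Slc26a10 had the highest level of the family. It stood at 30.2, 36.2 and 27.9 CPM in controls and at 20.7 and 30.1 CPM in mutants, overlapping ranges with a log2 fold change of -0.31 ± 0.18. Its value is uncertain, since it shares 715 exonic bases with B4galnt1 on the opposite strand. Slc26a6, a chloride-bicarbonate and oxalate exchanger gene that is prominent in heart muscle, had a log2 fold change of -0.13 ± 0.16, and the sulfate carrier gene Slc26a2 one of 0.13 ± 0.18. Slc26a7 was lower at an unadjusted p of 0.0317 (-0.93 ± 0.36) but did not pass (adjusted p = 0.187, edgeR). The low genes Slc26a1, Slc26a8 and Slc26a9 had log2 fold changes of -0.09 ± 0.36, -1.03 ± 0.61 and -0.60 ± 0.64 and did not pass either. Of the 9 tested members of the family, 8 had a negative value, with a median of -0.41, against 48.7% of all tested genes. Slc26a1 shares 141 exonic bases with Idua.

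In the bicarbonate family Slc4, 3 of 9 tested genes fell. Slc4a4 encodes the electrogenic sodium bicarbonate cotransporter NBCe1, which brings base into the myocyte. It stood at 40.046, 39.1 and 44.0 CPM in controls 2, 4 and 6, against 29.1 and 28.6 CPM in mutants 5 and 7. The mutant libraries lay close together and well below each control. The control mean was 41.1 ± 2.58 CPM (SD, n = 3) and the mutant mean 28.9 ± 0.36 CPM (SD, n = 2), with a log2 fold change of -0.51 ± 0.08 (SE) and an adjusted p of 0.00910 in edgeR. The highest adjusted p with a library left out was 0.0320. The gene (ENSMUSG00000060961) is listed from 89363670 to 89664637 on the plus strand of chromosome 5 (mm9).

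Slc4a3 encodes the chloride-bicarbonate exchanger AE3, which is abundant in heart and brain and loads acid. It stood at 60.6, 68.3 and 66.9 CPM in controls 2, 4 and 6, against 50.1 and 52.5 CPM in mutants 5 and 7. The groups did not overlap, and the gap between control 2 and mutant 7 was about as wide as the range of the controls. Its log2 fold change was -0.35 ± 0.07 (SE; adjusted p = 0.0280, edgeR), and the call went when control 4, control 6 or mutant 5 was left out (up to an adjusted p of 0.12). The listed span is 75543446 to 75555518 on the plus strand of chromosome 1 (mm9). The widely expressed exchanger gene Slc4a2 (AE2) stood at 57.0, 56.2 and 53.6 CPM in controls and at 52.0 and 49.9 CPM in mutants. Its mutant values lay below the controls, but by little, and the gene did not pass at a log2 fold change of -0.12 ± 0.07 (adjusted p = 0.340, edgeR). Slc4a2 shares 1141 exonic bases with Fastk on the opposite strand. Per kilobase, Slc4a3 made up 39.4%, 42.7% and 43.3% of the sum of Slc4a2 and Slc4a3 in controls 2, 4 and 6, against 37.1% and 39.1% in mutants 5 and 7.

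Slc4a8, a gene of a sodium-driven chloride-bicarbonate exchanger best known from neurons, was low throughout. It had 95, 76 and 63 counts in controls 2, 4 and 6, or 1.61, 1.28 and 1.02 CPM, and 36 and 42 counts in mutants 5 and 7, or 0.461 and 0.615 CPM. The controls ranged widely among themselves, and the mutants lay below all of them. Its log2 fold change of -1.28 ± 0.31 (SE) was near the threshold (adjusted p = 0.0484, edgeR), and the call was lost with any 1 library left out (adjusted p 0.0594 to 0.168). The gene (ENSMUSG00000023032) is listed from 100592361 to 100646062 on the plus strand of chromosome 15 (mm9). Slc4a5, a further sodium bicarbonate cotransporter gene at a low level, had 44, 27 and 42 counts in controls and 17 and 14 in mutants. Its log2 fold change of -1.56 ± 0.40 missed the threshold (adjusted p = 0.0555, edgeR), and it was the gene that DESeq2 called lower beside the 7.

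Slc4a7, which encodes the electroneutral sodium bicarbonate cotransporter NBCn1, had a log2 fold change of 0.16 ± 0.12 and did not pass (adjusted p = 0.532, edgeR). Slc4a10 and Slc4a11, both low, were at -0.09 ± 0.49 and 0.99 ± 0.46 and did not pass. Summed per kilobase over the 5 sodium bicarbonate carriers Slc4a4, Slc4a5, Slc4a7, Slc4a8 and Slc4a10, Slc4a4 made up 57.8%, 57.1% and 57.9% in controls 2, 4 and 6, against 51.1% and 44.0% in mutants 5 and 7. The summed level itself was 5.54, 5.49 and 6.08 CPM per kilobase in controls and 4.56 and 5.20 in mutants.

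Slc4a1 encodes band 3, the anion exchanger of the red cell. It stood at 2.00, 1.04 and 3.18 CPM in controls 2, 4 and 6, against 5.15 and 1.01 CPM in mutants 5 and 7, so the highest and the lowest value were both in mutants. The gene did not pass, with a log2 fold change of 0.57 ± 0.84 (SE) (adjusted p = 0.781, edgeR). The 12 erythroid marker genes found in the table, haemoglobin genes among them, summed to 1114 to 1459 CPM in controls and to 1782 and 1752 CPM in mutants, and 1 of 10 tested passed as higher. At an unadjusted p under 0.05 in edgeR, 5 of these 10 were higher and 0 lower, and DESeq2 called 4 higher. Without mutant 5 the fold change of Slc4a1 turned to -1.04.

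**Figure D3:**
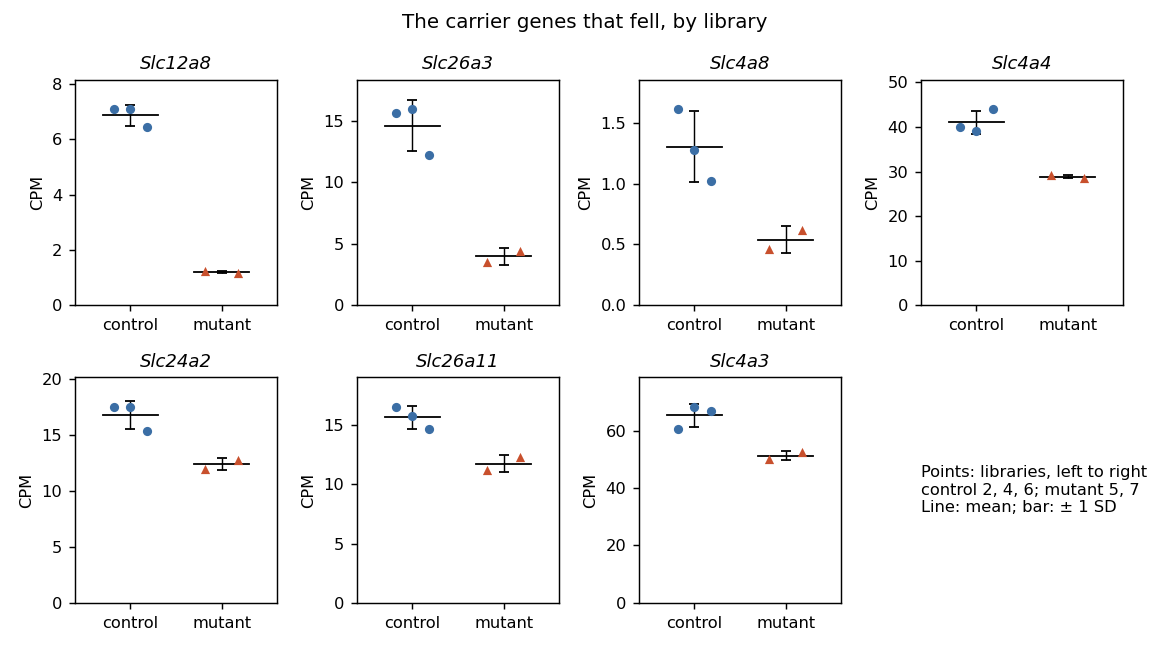
CPM (y axes, each from 0) of the 7 carrier genes that fell, in control libraries 2, 4 and 6 (circles, left to right) and mutant libraries 5 and 7 (triangles), with the mean as a line and 1 SD as a bar. Both mutant libraries lie below all 3 controls in each panel, by the widest margin for Slc12a8 and Slc26a3.

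None of the 3 sodium-calcium exchanger genes of family Slc8 passed in edgeR, and DESeq2 and limma-voom each called 0; 1 had an unadjusted p under 0.05 in edgeR. That gene was Slc8a1, which encodes NCX1, the main route of calcium out of the cardiac myocyte. It stood at 182, 192 and 200 CPM in controls 2, 4 and 6, against 204 and 235 CPM in mutants 5 and 7. Mutant 5 lay just above control 6, and mutant 7 well above it. The control mean was 191 ± 8.77 CPM (SD, n = 3) and the mutant mean 220 ± 21.8 CPM (SD, n = 2). The log2 fold change, 0.20 ± 0.08 (SE), did not pass (adjusted p = 0.196, edgeR). The log2 fold change was 0.30 without mutant 5 and 0.09 without mutant 7, so its size rested largely on mutant 7. Slc8a1 shares 296 exonic bases with AC122399.1 on the opposite strand. It made up 98.5% to 99.1% of the per-kilobase sum of the family in every library. Slc8a2 and Slc8a3 had log2 fold changes of 0.23 ± 0.20 and -0.14 ± 0.54.

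The Slc24 family holds exchangers that carry potassium along with calcium against sodium. Slc24a2, a gene best known from retinal cones and neurons, fell. It stood at 17.5, 17.5 and 15.4 CPM in controls 2, 4 and 6, against 11.98 and 12.7 CPM in mutants 5 and 7, without overlap. Its log2 fold change was -0.44 ± 0.10 (SE; adjusted p = 0.0355, edgeR), a call that held with control 6 left out and was lost without any other single library (highest adjusted p = 0.145). The listed span lies on the minus strand of chromosome 4, from 86637248 to 86873719 (mm9). Slc24a3 had a log2 fold change of about the same size, -0.45 ± 0.18, with wider spread (adjusted p = 0.200, edgeR). Slc24a4 had the highest level per length in the family. Its values were 15.6, 15.6 and 13.3 CPM in controls and 12.3 and 13.2 CPM in mutants, and the log2 fold change was -0.22 ± 0.11. Slc24a6, the symbol used in the table for the mitochondrial sodium-calcium exchanger gene, had a log2 fold change of 0.06 ± 0.15. Slc24a5, a pigment cell gene that shares 921 exonic bases with Myef2, was at 0.57 ± 0.34.

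No sodium-proton exchanger gene of family Slc9 passed in edgeR among 7 tested, while 1 was higher and 2 lower at an unadjusted p under 0.05. DESeq2 called 1 higher, Slc9a8, and limma-voom called 0. Slc9a8, a gene of the Golgi and endosomal exchanger NHE8, stood at 24.6, 24.4 and 24.9 CPM in controls and at 29.6 and 29.7 CPM in mutants. These groups were tight and did not overlap, yet the gene missed the threshold with a log2 fold change of 0.27 ± 0.07 (adjusted p = 0.0634, edgeR). Slc9a2 was at -0.39 ± 0.15 and did not pass (adjusted p = 0.169, edgeR). Slc9a5, Slc9a7 and Slc9a9 had log2 fold changes of 0.36 ± 0.19, 0.25 ± 0.14 and 0.02 ± 0.11. With each library left out in turn, the log2 fold change of Slc9a5 ran from 0.02 to 0.64 and that of Slc9a2 from -0.60 to -0.22.

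Genes that work with these carriers were taken from 4 lists of pumps, enzymes and regulators. Of 42 tested, 4 fell and none passed as higher in edgeR, which is 9.52% lower against 3.57% of all tested genes. At an unadjusted p under 0.05 in edgeR, 3 were higher and 10 lower. Of all 17835 tested genes, 1880 were higher and 1825 lower by that measure. Neither DESeq2 nor limma-voom called any partner gene higher. DESeq2 called 8 of the partner genes lower, where it called 6.22% of all genes lower.

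Among 13 sodium pump subunit and FXYD genes, Fxyd1 fell. It encodes phospholemman, the small heart protein that restrains both the sodium pump and NCX1. Its values were 246, 235 and 230 CPM in controls 2, 4 and 6, against 182 and 173 CPM in mutants 5 and 7, a log2 fold change of -0.42 ± 0.07 (SE; adjusted p = 0.00947, edgeR) that lost its call without control 2 (adjusted p = 0.0534). By the authors' RPKM, Fxyd1 also had the highest level of its list. The pump subunit gene Atp1b1 had a log2 fold change of 0.19 ± 0.07 and did not pass.

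Among 12 carbonic anhydrase genes, Car14 fell. It encodes a membrane-bound enzyme, facing the outside of the cell, that interconverts carbon dioxide and bicarbonate and is found on heart muscle membranes. It stood at 66.0, 55.7 and 57.3 CPM in controls 2, 4 and 6, against 43.1 and 37.1 CPM in mutants 5 and 7. The groups did not overlap, and the log2 fold change was -0.57 ± 0.10 (SE; adjusted p = 0.0131, edgeR). Car14 had the highest level of its list by the authors' RPKM and kept its call with each library left out (highest adjusted p = 0.0497).

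Of 10 genes of the WNK kinases, SPAK, OSR1 and their scaffolds, which set the activity of cation-chloride cotransporters, Wnk4 fell. It stood at 15.1, 15.5 and 14.2 CPM in controls 2, 4 and 6, against 8.16 and 10.5 CPM in mutants 5 and 7 (log2 fold change -0.68 ± 0.13 SE; adjusted p = 0.0174, edgeR). With control 2 or control 4 left out it did not pass (adjusted p up to 0.0721, edgeR). Stk39, the SPAK gene and the highest of its list by the authors' RPKM, was at -0.03 ± 0.09, and Wnk1 was at 0.13 ± 0.11. Of 7 partner genes of sodium-proton exchangers and bicarbonate carriers, Ezr fell and was the highest of its list. It encodes ezrin, which ties membrane proteins to actin, and stood at 247, 229 and 231 CPM in controls and at 161 and 144 CPM in mutants (-0.63 ± 0.08; adjusted p = 0.00270, edgeR).

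Markers of other cell types moved along with these falls. Of 8 epicardial mesothelium markers, 6 fell, and their summed level was 1045 to 1221 CPM in controls and 729 and 750 CPM in mutants. Upk3b and Krt19 each fell by 0.79 on the log2 scale, while Wt1 and Tbx18 did not pass (-0.23 and -0.02). Of 4 fibroblast markers, 2 fell, Lum by 0.92 and Dcn by 0.80, and the list summed to 2945 to 3530 CPM in controls and to 2224 and 2220 CPM in mutants. Of 5 endothelial markers, 1 passed as higher, with sums of 1025 to 1088 CPM in controls and 1199 and 1470 CPM in mutants. Mutant values lay wholly above the controls for all 5, where 18.6% of all tested genes did so. At an unadjusted p under 0.05 in edgeR, 4 were higher and 0 lower, and DESeq2 called 2 higher. In whole tissue, fewer cells of a type and less RNA per cell cannot be told apart. The part of these cells in the falls of the carriers and of Fxyd1, Car14, Wnk4 and Ezr was not tested. The log2 fold changes of Slc12a8, Slc26a3 and Slc4a8, -2.51, -1.88 and -1.28, were larger in size than that of any marker of the 2 falling lists, while those of Slc4a4, Slc24a2, Slc26a11 and Slc4a3 lay within the markers' range.

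**Figure D4:**
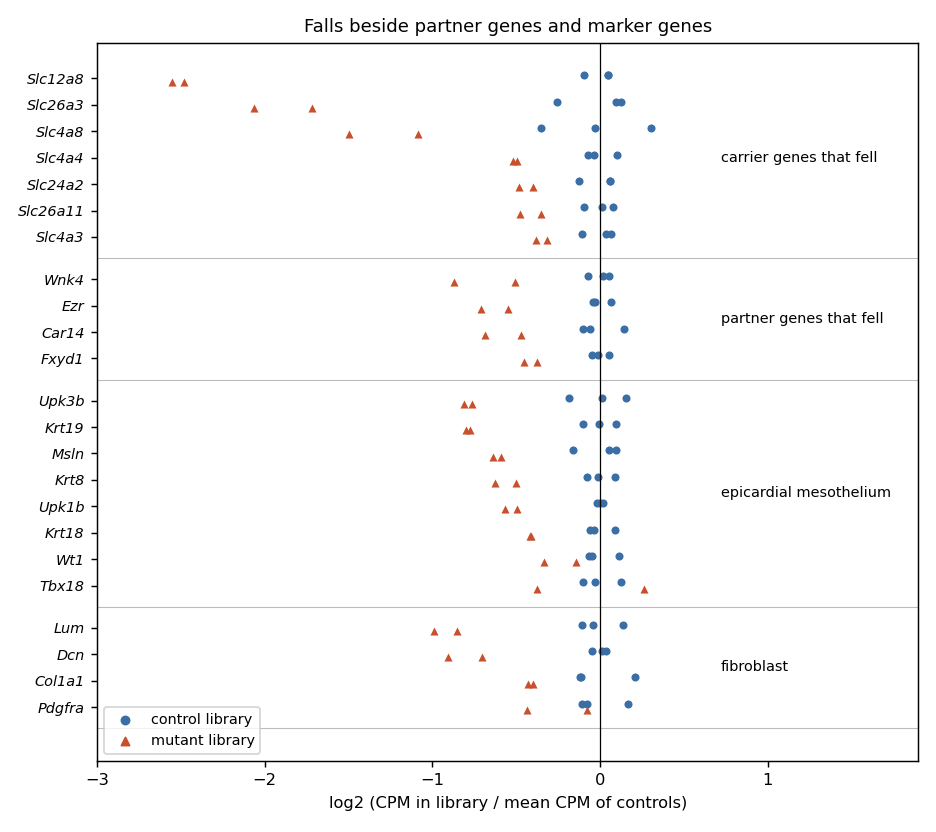
Level of each gene in each library as log2 of its CPM over the mean CPM of the controls (x axis), for the 7 carriers and 4 partner genes that fell and for the epicardial mesothelium and fibroblast marker lists; circles are control and triangles mutant libraries. Only the mutant triangles of Slc12a8, Slc26a3 and Slc4a8 lie below -1 in both libraries among the genes drawn.

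Other lists were at low levels or had at most 1 member that passed. Lung epithelium markers summed to at most 1.70 CPM in any library and thymocyte markers to at most 1.72 CPM, with Rag2 at 0 in all 5. Neuron and Schwann cell markers, of interest for Slc4a8 and Slc24a2, summed to 20.6 to 29.9 CPM in controls and to 24.3 and 28.3 CPM in mutants, and 0 of 8 passed in edgeR. At an unadjusted p under 0.05, 1 of these was higher and 1 lower, DESeq2 called 1 in each direction and limma-voom called 0. Atrial myocyte markers summed to 59321 to 61823 CPM in controls and to 61740 and 56884 CPM in mutants, with 1 of 8 lower, Nppa. Ventricular myocyte markers summed to 1936 to 2514 CPM and to 2693 and 2317 CPM, with 1 of 5 higher, Hey2, and most of the sum from Myh7 (1846 to 2616 CPM). Of the others, Myl3 had 123.9, 67.2 and 144.9 CPM in controls, against 22.3 and 15.4 CPM in mutants, without overlap (log2 fold change -2.57 ± 0.47), and missed the threshold (adjusted p = 0.0764, edgeR), while DESeq2 and limma-voom each called 1 marker of this list lower. Irx4 and Myl2 were at -1.49 ± 0.67 and -1.74 ± 1.17 and did not pass. Adipocyte markers summed to 156 to 188 CPM and to 183 and 202 CPM, with 1 of 2 tested higher, Cidea. The ventricular myosin gene Myl2 stood at 95.9 CPM in control 6, against 8.26 to 22.3 CPM elsewhere. The count of carriers without control 6 is given above.

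In the authors' deposited table, 6 of the 7 falls also had an adjusted p under 0.05, from 1.02e-28 for Slc12a8 to 0.0392 for Slc4a3, and Slc26a11 did not. That table called 2.5% of its tested genes lower by this threshold.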

How the data were processed

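The table the authors deposited holds unscaled read counts for each gene in 3 control and 2 mutant libraries of polyA RNA (TruSeq kit, per the labels' protocols), with RPKM values pooled by group, a log2 ratio, and p-values with adjusted p-values. The submitters' processing notes name build mm9, TopHat2 2.0.4, HTSeq 0.5.4p3 and DESeq without their roles; whether counting used strand is not stated there. Entries for reads without a feature (3.97% to 6.03% of counts) and ambiguous reads (2.31% to 3.18%) were left out.

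Counts were tested with edgeR 4.0.16 in R 4.3.3 (filterByExpr at its minimum count, 10, and minimum total, 15, TMM scaling, robust quasi-likelihood fit, two-sided, Benjamini-Hochberg adjustment over 17835 genes, threshold 0.05), with DESeq2 1.42.0 and limma-voom (limma 3.58.1) as alternatives. The fit was tested on simulated data. CPM are on the TMM scale, and a standard error is the size of the log2 fold change over root F. Levels between genes use the table's length column. Of 48 members compared, 42 had a listed span of coding length within 3 bases (GENCODE vM21), so the spans printed are mostly coding spans. That reference also gave exon sharing.

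Members, gene lists and tests were chosen with earlier results of these data known. Values are given for members that passed, the highest of each family, a fixed set of others and the called or highest partner genes. Per-library values of Slc4a5 and Slc9a8, and Atp1b1 and Wnk1, fall outside that rule and were added after their values were seen. Some genes are counted but not reported here by name. Named alternatives also covered scaling, filters, the threshold and leaving out each library.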

Additional observations from a re-analysis of the deposited data

How the results depend on the processing

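No paired analysis was possible because controls 2, 4 and 6 and mutants 5 and 7 share no replicate number. The count of 7 carriers lower was 5 to 8 under DESeq2's size factors, library totals, DESeq2, limma-voom, a floor of 1 CPM, no filter and erythroid genes left out, and 3 at a threshold of 0.01. It was 3 to 4 with 1 library left out, and the carriers higher were 0 to 2. DESeq2 gave 1 carrier higher. Of the 4 partner genes lower, 8 were so with DESeq2, 2 at a threshold of 0.01, and 3 to 7 with 1 library left out; 0 were higher in each of these fits. Over all genes, 538 higher and 636 lower became 960 and 1044 with DESeq2 and 157 and 234 at a threshold of 0.01. Leaving out 1 library gave 203 to 910 higher and 306 to 804 lower. With 1 library left out the sign turned for several genes that did not pass: Slc12a4 ran from -0.039 (without mutant 7) to 0.121, Slc12a2 from -0.136 (without mutant 7) to 0.265, and Slc4a1 from -1.04 (without mutant 5) to 1.304. It also turned for Slc12a9, Slc24a6, Slc26a1, Slc26a2, Slc4a7, Slc4a10 and Slc8a3. The causes were not tested. Low counts limit Slc4a8, Slc4a5 and the 9 untested genes. With 1 mutant library left, its spread is assumed to be that of the controls.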
